A study of Homo sapiens with 6 samples.

Results

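The very long human genes CNTNAP2, CSMD1, PTPRD, LRP1B and FHIT were followed as 5 regions of the genome, each taken as all 10 kb windows that lie within fixed hg19 (GRCh37) bounds around the gene. The bounds came from position and not from any read count. In hg19, counted from 1, the CNTNAP2 region was chromosome 7, 145810001 to 148120000, 2.31 Mb in 231 windows. The CSMD1 region was chromosome 8, 2790001 to 4860000, 2.07 Mb in 207 windows. The PTPRD region was chromosome 9, 8310001 to 10620000, 2.31 Mb in 231 windows. The LRP1B region was chromosome 2, 140980001 to 142890000, 1.91 Mb in 191 windows. The FHIT region was chromosome 3, 59730001 to 61240000, 1.51 Mb in 151 windows. The regions held 1011 of the 303641 windows of the genome, and all 1011 had a mean of at least 10 reads over the libraries, the minimum for a window to be compared.

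The reads came from chromatin immunoprecipitation followed by sequencing (ChIP-seq), which recovers DNA crosslinked to a protein of interest. The study concerned CDK2 and PARP1 in the response to progestin. The cells were T47D-MTVL, a line derived from the human breast cancer line T47D that carries an integrated mouse mammary tumour virus promoter reporter, and they had been kept without serum beforehand. Antibodies against CDK2 and against PARP1 were used on cells fixed at 0 min without hormone, and at 5 min and 30 min of 10 nM R5020, a synthetic progestin. There was 1 library for each antibody and time, 6 in all, so no difference below has a replicate check, each ratio compares 2 libraries and not the conditions, and no p-value is given. All libraries came from this single line, whose DNA copy number differs from that of normal cells, and an input library was not analysed here. A read count per window therefore also holds copy number and mappability, which ratios between libraries of the same window cancel.

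CDK2 is a cyclin-dependent kinase known for its part in the start and progress of DNA replication, and PARP1 is an enzyme that binds DNA ends and nicks and builds poly(ADP-ribose) chains on chromatin proteins. Common fragile sites are stretches of the genome that gap or break when replication is slowed, and many of them lie within very long genes that replicate late. FHIT, which encodes a diadenosine triphosphate hydrolase, spans the fragile site FRA3B and is often deleted in tumours. CNTNAP2 encodes a neurexin-related adhesion protein of axons. PTPRD encodes a receptor-type protein tyrosine phosphatase of neurons. LRP1B encodes a large receptor of the low-density lipoprotein receptor family. The remaining gene encodes a membrane protein with CUB and sushi domains, the domains of complement regulators.

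RefSeq promoter sequences (GRCh38.p14, a later build than the hg19 windows) are shown for 3 of the 5 genes because the windows do not resolve the start of a gene. Each runs from 250 bases before to 50 bases after the annotated start, read 5′ to 3′ on the strand of the gene, with CpG dinucleotides in capitals. The PTPRD and FHIT sequences are the outermost of 3 and of 2 promoters listed for those genes.
CNTNAP2, chr7:146116551-146116850, plus strand: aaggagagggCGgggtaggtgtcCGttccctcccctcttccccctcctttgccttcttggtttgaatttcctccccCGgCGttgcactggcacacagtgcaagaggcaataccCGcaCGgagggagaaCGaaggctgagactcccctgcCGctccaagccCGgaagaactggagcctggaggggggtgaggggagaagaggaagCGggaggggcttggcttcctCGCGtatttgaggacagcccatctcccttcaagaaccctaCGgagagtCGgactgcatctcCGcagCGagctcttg
PTPRD, chr9:10612953-10613252, minus strand: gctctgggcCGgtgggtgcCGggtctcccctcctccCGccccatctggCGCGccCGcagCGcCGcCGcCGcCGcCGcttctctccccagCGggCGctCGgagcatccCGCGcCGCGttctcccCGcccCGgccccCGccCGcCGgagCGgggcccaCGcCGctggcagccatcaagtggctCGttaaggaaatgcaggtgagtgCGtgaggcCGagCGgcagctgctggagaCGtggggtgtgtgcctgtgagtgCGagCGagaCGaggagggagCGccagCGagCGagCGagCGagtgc
FHIT, chr3:61251403-61251702, minus strand: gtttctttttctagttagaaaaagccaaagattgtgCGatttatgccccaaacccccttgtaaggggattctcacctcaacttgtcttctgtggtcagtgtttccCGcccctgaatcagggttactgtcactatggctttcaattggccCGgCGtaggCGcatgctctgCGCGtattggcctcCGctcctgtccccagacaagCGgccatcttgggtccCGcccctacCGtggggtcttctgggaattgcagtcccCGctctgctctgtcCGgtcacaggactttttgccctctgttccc

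The 3 promoters differ in base composition. PTPRD had 40 CpG dinucleotides and a GC content of 75.3%, CNTNAP2 had 16 and 61.7%, and FHIT had 13 and 55%, beside medians of 14 and 58.7% over all 35116 promoters of the table. The progesterone receptor recognises pairs of the hexamer AGAACA, written TGTTCT on the other strand. Neither form occurs in these 3 windows of 300 bases, and 14.8% of all promoters in the table hold it on either strand.

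Library totals were 45111064, 57793168 and 40097131 reads for CDK2 at 0, 5 and 30 min, and 55772389, 58495554 and 63448449 reads for PARP1 at the same times. The median over the 278395 compared windows of the genome was 149, 185 and 130 reads for CDK2 and 182, 192 and 208 reads for PARP1. Neighbouring windows differed by more than counting error in every library. A dispersion was taken as how much more the counts of adjacent windows varied than independent reads would (robust variance, 1 for independent reads). It was 7.43, 52.2 and 24.0 for CDK2 and 6.11, 11.4 and 8.62 for PARP1 at 0, 5 and 30 min. The 95% intervals below are widened by the dispersions of both libraries. They do not cover differences between libraries that run smoothly over long stretches of the genome, which the 2 Mb blocks and the flanks described below show instead.

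In every library the 5 regions held fewer reads per window than the genome at large, as did the windows around them. Their pooled median level was lower after hormone than at 0 min with both antibodies, least so in CDK2 at 5 min. For CDK2 at 0, 5 and 30 min, the median window over the 5 regions was 0.839, 0.822 and 0.723 of the median of the library. For PARP1 it was 0.857, 0.766 and 0.788 of the library median. CSMD1 had the lowest relative level of the 5 at 0 min with both antibodies, 0.779 for CDK2 and 0.808 for PARP1. LRP1B stood at 0.872, 0.919 and 0.700 for CDK2 and at 0.890, 0.750 and 0.784 for PARP1. CNTNAP2 stood at 0.846, 0.892 and 0.785 for CDK2 and at 0.874, 0.781 and 0.812 for PARP1. FHIT changed least in the PARP1 libraries, with 0.852, 0.818 and 0.837. Windows within 2 Mb on each side of a region had medians of 0.692 to 0.874 of the library median over all regions and libraries. The mean window of a region was 1.01 to 1.21 of the mean of those windows at 0 min and 0.789 to 1.19 after hormone. The low level was thus not particular to the regions.

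**Figure D1:**
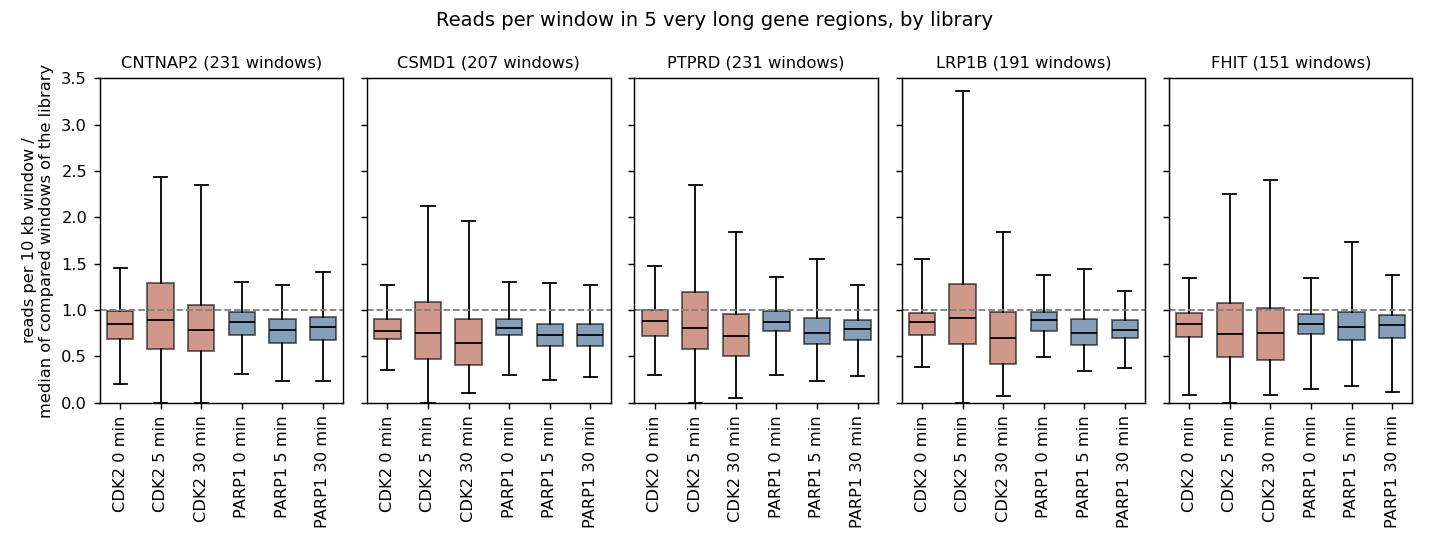
Reads per 10 kb window divided by the median compared window of the same library (vertical axis), for each of the 5 regions (panels) and each of the 6 libraries (boxes). Boxes span the quartiles with the median as a line, and whiskers reach the lowest and highest window; the CDK2 boxes of 5 and 30 min are the widest, and every median lies below 1.

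Windows of the same region spread most in the CDK2 libraries made after hormone. In CDK2 at 5 min a window of LRP1B held between 0 and 623 reads with a median of 170, against 58 to 231 with a median of 130 at 0 min. In PARP1 at 5 min a window of LRP1B held 65 to 278 reads with a median of 144, against 89 to 250 with a median of 162 at 0 min. The coefficient of variation over windows in the 5 regions was 0.222 to 0.274 for CDK2 at 0 min, 0.527 to 0.550 at 5 min and 0.432 to 0.528 at 30 min. For PARP1 it was 0.166 to 0.316 over all times and regions. The dispersion of the library moved with this spread, and its part in the spread was not tested.

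At 30 min of R5020 all 5 regions held fewer reads per library total than at 0 min with both antibodies, and LRP1B, CSMD1 and PTPRD were lowest. The region of LRP1B, the lipoprotein receptor gene, held 18075 CDK2 reads at 30 min and 24602 at 0 min, and 31450 PARP1 reads at 30 min and 30605 at 0 min, in libraries of different depth. Scaled by library totals, this gave ratios of 0.827 (95% interval 0.764 to 0.895) for CDK2 and 0.903 (0.866 to 0.943) for PARP1. CSMD1 held 18381 CDK2 reads at 30 min and 24427 at 0 min, a ratio of 0.847 (0.783 to 0.916), and its PARP1 ratio was 0.906 (0.869 to 0.946) from 31503 and 30553 reads. PTPRD held 22687 CDK2 reads at 30 min and 30157 at 0 min, a ratio of 0.846 (0.789 to 0.909), and its PARP1 ratio was 0.919 (0.884 to 0.955) from 38241 and 36593 reads.

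The other 2 genes lay nearer to 1 at 30 min. FHIT, the fragile site gene, held 15106 CDK2 reads at 30 min and 18786 at 0 min, a ratio of 0.905 (0.829 to 0.987), and 25426 PARP1 reads at 30 min and 23244 at 0 min, a ratio of 0.962 (0.916 to 1.01). CNTNAP2 held 24599 CDK2 reads at 30 min and 29036 at 0 min, a ratio of 0.953 (0.890 to 1.02), and 38454 PARP1 reads at 30 min and 35683 at 0 min, a ratio of 0.947 (0.911 to 0.985). So 4 of 5 intervals lay below 1 for each antibody, with CNTNAP2 the exception for CDK2 and FHIT the exception for PARP1. Over the summed reads of the 5 regions the ratio of 30 min over 0 min was 0.876 (0.846 to 0.906) for CDK2 and 0.926 (0.909 to 0.944) for PARP1. Windows with a ratio below 1 made up 65.5% of the regions for CDK2, beside 53.3% of all compared windows, and 63.3% for PARP1, beside 50.7%. The 5 ratios stayed below 1 for both antibodies under each of 7 other ways to scale or summarise them. For CDK2, the interval of FHIT reached past 1 under 3 other scalings.

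Among the 10 pairs of genes, CNTNAP2 differed from 3 others in the CDK2 ratio of 30 min over 0 min. Its ratio was 1.13 times that of CSMD1 (1.01 to 1.25), 1.13 times that of PTPRD (1.02 to 1.24) and 1.15 times that of LRP1B (1.04 to 1.28). No pair differed beyond its interval in the PARP1 ratio of 30 min over 0 min.

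**Figure D2:**
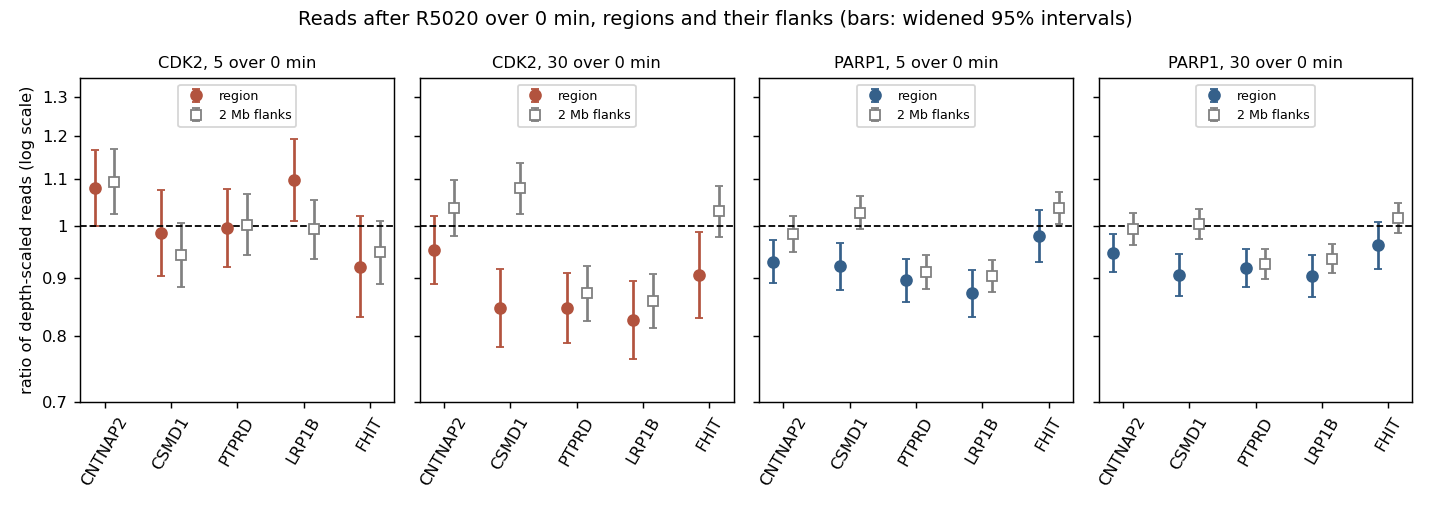
Ratio of depth-scaled reads after R5020 over 0 min (vertical axis, log scale) for the 5 regions (filled circles) and for the 2 Mb flanks on both sides pooled (open squares), with bars for the widened 95% intervals. At 30 min every region lies below 1 with both antibodies, the CDK2 flanks of CNTNAP2, CSMD1 and FHIT lie above 1 with intervals that include 1 for CNTNAP2 and FHIT, and those of PTPRD and LRP1B lie below 1.

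At 5 min the depth-scaled PARP1 reads were lower than at 0 min in LRP1B, PTPRD, CSMD1 and CNTNAP2. Depth-scaled CDK2 reads were higher than at 0 min in CNTNAP2 and LRP1B, with intervals that only just cleared 1. For PARP1, LRP1B held 28004 reads at 5 min and 30605 at 0 min, a ratio of 0.872 (0.831 to 0.916). PTPRD held 34372 PARP1 reads at 5 min and 36593 at 0 min, a ratio of 0.896 (0.857 to 0.936). CSMD1 had a PARP1 ratio of 0.921 (0.879 to 0.966) and CNTNAP2 of 0.931 (0.891 to 0.972). FHIT had 0.980 (0.929 to 1.03), from 23894 reads at 5 min and 23244 at 0 min, and its interval was the only one to include 1. Over the 5 regions together the PARP1 ratio of 5 min over 0 min was 0.917 (0.898 to 0.936). LRP1B was lower than FHIT by a factor of 0.890 (0.828 to 0.957) and PTPRD by a factor of 0.914 (0.853 to 0.979), and the other 8 pairs had intervals that included 1.

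For CDK2 at 5 min, LRP1B held 34628 reads, against 24602 at 0 min, a ratio of 1.10 (1.01 to 1.19). CNTNAP2 held 40199 CDK2 reads at 5 min and 29036 at 0 min, a ratio of 1.08 (1.00 to 1.17). Both intervals included 1 once the 2 windows of highest mean in each region were left out, at 1.08 (0.990 to 1.17) for LRP1B and 1.07 (0.993 to 1.16) for CNTNAP2. The CDK2 ratios of PTPRD at 0.996 (0.921 to 1.08), of CSMD1 at 0.986 (0.904 to 1.08) and of FHIT at 0.921 (0.831 to 1.02) lay on the other side of 1, and under one or more other scalings each of them passed above 1. FHIT was below CNTNAP2 and LRP1B in this ratio, by factors that put CNTNAP2 at 1.17 times FHIT (1.03 to 1.33) and LRP1B at 1.19 times FHIT (1.05 to 1.36). The other 8 pairs, those of CNTNAP2 and LRP1B with CSMD1 and PTPRD among them, had intervals that included 1. The pooled CDK2 ratio of 5 min over 0 min was 1.02 (0.984 to 1.06), against 1.07 (1.03 to 1.11) with TMM factors, whose interval lies above 1, and 52.6% of the member windows lay below 1, beside 53.5% of all compared windows. All values at 5 and 30 min share the 0 min library of their antibody, so a low or high count in that library enters both.

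Set directly against 5 min, the CDK2 library of 30 min held fewer reads in LRP1B, PTPRD, CSMD1 and CNTNAP2. The CDK2 ratio of 30 min over 5 min was 0.752 (0.678 to 0.835) in LRP1B, 0.850 (0.772 to 0.936) in PTPRD, 0.858 (0.771 to 0.955) in CSMD1 and 0.882 (0.803 to 0.968) in CNTNAP2. In FHIT it was 0.982 (0.869 to 1.11). LRP1B lay below FHIT by a factor of 0.766 (0.652 to 0.900) in this comparison. The PARP1 ratios of 30 min over 5 min were 0.981 to 1.04, pooled 1.01 (0.988 to 1.03), and each interval included 1.

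Before hormone, CDK2 and PARP1 libraries held shares of their reads in the regions that did not differ beyond the intervals. After it the shares differed in LRP1B at both times, in CNTNAP2 and PTPRD at 5 min and in CSMD1 at 30 min. At 0 min the ratio of CDK2 over PARP1 was 0.988 to 1.02 in the 5 regions and 1.00 (0.983 to 1.02) pooled. At 5 min it was 1.25 (1.15 to 1.36) in LRP1B, 1.17 (1.08 to 1.26) in CNTNAP2 and 1.13 (1.05 to 1.23) in PTPRD, with 1.06 (0.968 to 1.16) in CSMD1 and 0.939 (0.846 to 1.04) in FHIT. LRP1B was 1.33 times FHIT (1.16 to 1.53) in this ratio, and 4 of the 10 pairs of genes differed beyond their intervals. At 30 min the ratio was 0.948 (0.916 to 0.980) pooled, with intervals below 1 in LRP1B at 0.909 (0.841 to 0.984) and CSMD1 at 0.923 (0.854 to 0.998). Under 3 other scalings these intervals at 30 min included 1.

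Ratios of the size seen at 30 min over 0 min were not rare in the genome. The genome was divided into 1409 blocks of 2 Mb, and for CDK2 at 30 min over 0 min 5.96% of them had a ratio at or below that of LRP1B, 9.79% at or below PTPRD, 9.87% at or below CSMD1, 24.9% at or below FHIT and 39.7% at or below CNTNAP2. For PARP1 at 30 min over 0 min the shares were 7.24% for LRP1B, 8.02% for CSMD1, 11.6% for PTPRD, 23.3% for CNTNAP2 and 29.2% for FHIT. The central 90% of blocks ran over 0.819 to 1.26 for CDK2 and 0.894 to 1.12 for PARP1, so the 5 ratios of PARP1 and of CDK2 at 30 min over 0 min all lay within these ranges. For PARP1 at 5 min over 0 min, 8.30% of blocks lay at or below LRP1B and 43.4% at or below FHIT. For CDK2 at 5 min over 0 min, LRP1B and CNTNAP2 lay high, with 97.2% and 94.0% of blocks at or below them, and FHIT lay low, with 6.25%. LRP1B lay outside the central 90% of blocks in 3 comparisons. These were CDK2 at 5 min over 0 min, at 1.10 beside a 95th percentile of 1.08, CDK2 at 30 min over 5 min, at 0.752 beside a 5th percentile of 0.772, and CDK2 over PARP1 at 5 min, at 1.25 beside a 95th percentile of 1.24.

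Set against the windows within 2 Mb on each side, CSMD1 was lower than its flanks at 30 min over 0 min, and the other genes gave mixed values by side and antibody. The CDK2 ratio of 30 min over 0 min was 0.847 in CSMD1 and 1.08 (1.02 to 1.14) in its flanks, so the region was 0.784 (0.714 to 0.862) of its flanks. With flanks of 1 Mb, chosen after seeing the data, this value was 0.871 (0.782 to 0.970). For PARP1, CSMD1 was 0.902 (0.856 to 0.951) of its flanks at 30 min over 0 min and 0.897 (0.846 to 0.950) at 5 min over 0 min, the last of which became 0.947 (0.886 to 1.01) with flanks of 1 Mb. FHIT was 0.878 (0.793 to 0.972) of its flanks for CDK2 at 30 min over 0 min, which became 0.910 (0.811 to 1.02) with flanks of 1 Mb. Its PARP1 values were 0.946 (0.894 to 1.00) at 30 min and 0.945 (0.887 to 1.01) at 5 min. Against both flanks pooled, the intervals of PTPRD, LRP1B and CNTNAP2 included 1 at 30 min over 0 min with both antibodies, at 0.970 (0.887 to 1.06), 0.962 (0.874 to 1.06) and 0.918 (0.840 to 1.00) for CDK2.

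The flanks of a gene often differed from each other, so they were also read by side, a split added after seeing the data. For PTPRD the flank at higher coordinates, toward TYRP1 and LURAP1L, was low at 30 min over 0 min, with 0.814 (0.751 to 0.884) for CDK2 and 0.858 (0.821 to 0.896) for PARP1. Its flank at lower coordinates, toward DMAC1 and KDM4C, had 0.928 (0.860 to 1.00) for CDK2 and 0.995 (0.954 to 1.04) for PARP1. In PARP1 the PTPRD region thus lay between them, at 1.07 (1.01 to 1.14) of the flank at higher coordinates and 0.923 (0.872 to 0.978) of the flank at lower coordinates. For LRP1B both flanks were low in CDK2 at 30 min over 0 min, with 0.879 (0.812 to 0.950) toward NXPH2 and SPOPL and 0.842 (0.781 to 0.907) toward KYNU and ARHGAP15. In PARP1 those flanks had 0.898 (0.861 to 0.938) and 0.969 (0.931 to 1.01), and LRP1B was 0.932 (0.879 to 0.988) of the flank at higher coordinates. Neighbouring genes are named from RefSeq by the order of genes only.

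For CNTNAP2 the flank at lower coordinates had a CDK2 ratio of 0.912 (0.841 to 0.989) at 30 min over 0 min, and the flank at higher coordinates, toward CUL1 and EZH2, had 1.19 (1.10 to 1.30). The region was 0.798 (0.718 to 0.888) of the flank at higher coordinates and 1.05 (0.940 to 1.16) of the flank at lower coordinates. In PARP1 these flanks had 1.08 at higher and 0.928 at lower coordinates. For CSMD1 the CDK2 ratio was 1.15 (1.07 to 1.24) in the flank at lower coordinates, toward MYOM2 and KBTBD11, and 1.02 (0.945 to 1.09) in the other, and the region was below each, at 0.734 (0.659 to 0.818) and 0.833 (0.749 to 0.927). FHIT was 0.854 (0.762 to 0.956) of its flank at lower coordinates for CDK2 and 0.904 (0.805 to 1.01) of the other.

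In most blocks of each gene the 30 min ratio lay below 1. The regions were cut into 52 consecutive blocks of 200 kb, or 20 windows. The last block held 11 windows in CNTNAP2, PTPRD, LRP1B and FHIT, and CSMD1 windows past 4790000 were left out. Of the 52 blocks, 45 had a CDK2 ratio of 30 min over 0 min below 1 and 47 a PARP1 ratio below 1. The widened interval lay below 1 in 13 blocks for CDK2 and in 10 for PARP1, and above 1 in 0 blocks for either. The same shares over all blocks of this size in the genome were not taken, so these counts have no background. Of all single compared windows, 53.3% had a CDK2 ratio and 50.7% a PARP1 ratio below 1. In 42 of the 52 blocks both antibodies were below 1. Across blocks the CDK2 and PARP1 ratios of 30 min over 0 min had a Pearson r of 0.285 and a Spearman rho of 0.145, with r at 0.687 over the 8 blocks of FHIT, 0.685 over the 12 of CNTNAP2 and -0.497 over the 12 of PTPRD. Blocks of a gene share chromosome, copy number and base composition and are not replicates. At 5 min over 0 min, 46 of 52 blocks were below 1 for PARP1 and 22 of 52 for CDK2. Of all single compared windows, 51.4% and 53.5% were below 1 in these comparisons.

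**Figure D3:**
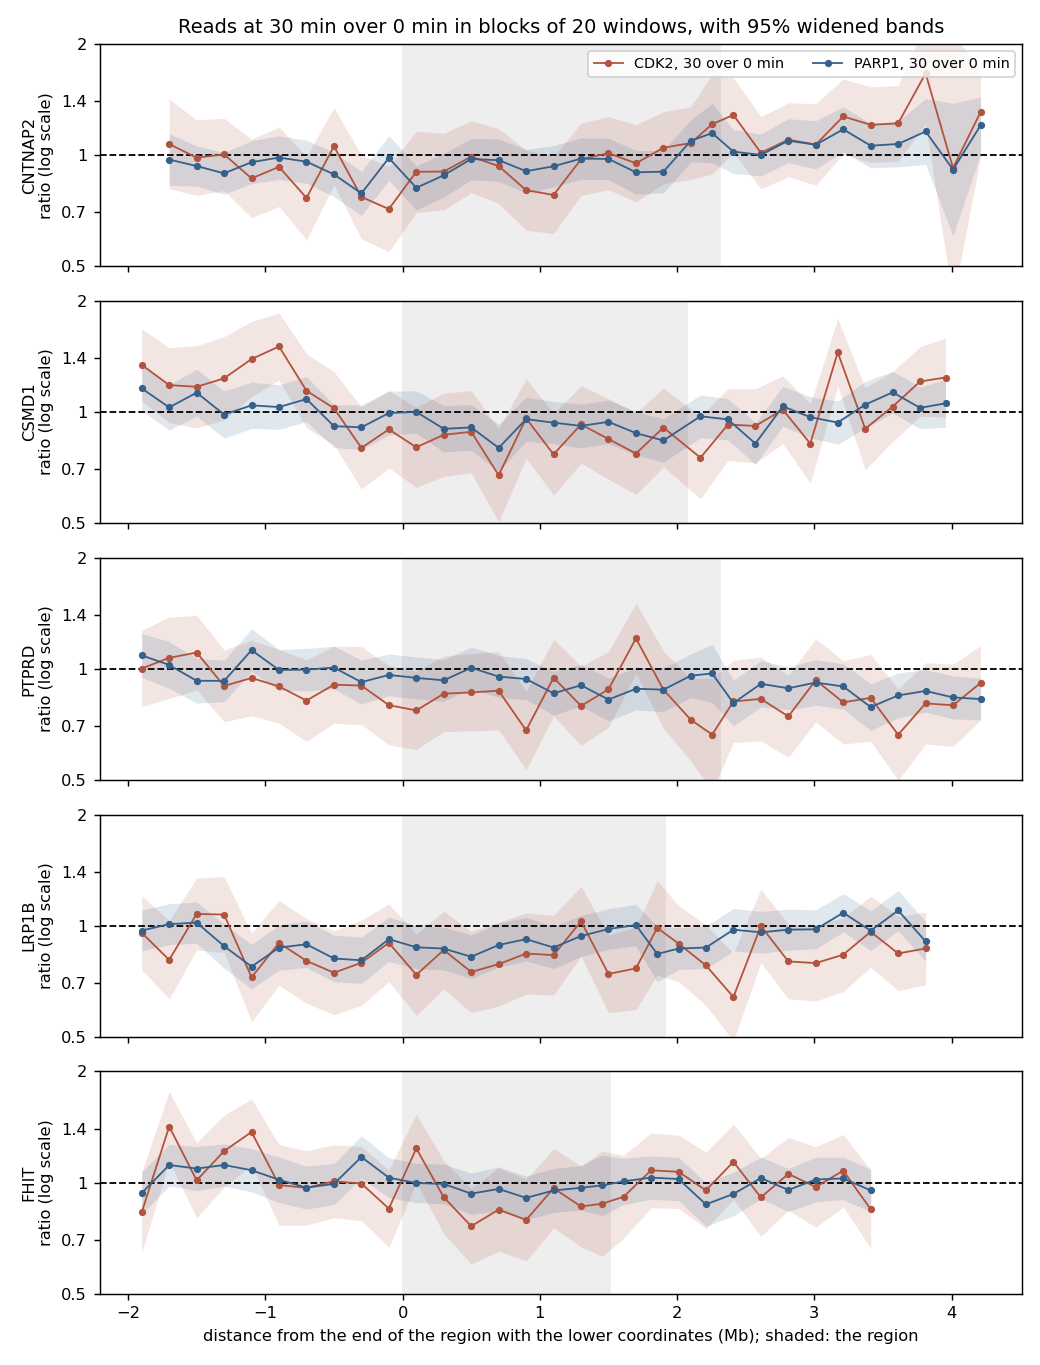
Ratio of reads at 30 min over 0 min (vertical axis, log scale) in blocks of up to 20 windows along each region (shaded) and its 2 Mb flanks, against the distance in Mb from the end of the region with the lower coordinates. Bands are widened 95% intervals; most points within the regions lie below 1, and the flank at higher coordinates, summed as a whole, lies above 1 for CNTNAP2 and below 1 for PTPRD with both antibodies.

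In the part of CNTNAP2 with the lower coordinates the CDK2 ratio of 30 min over 0 min was 0.895 (0.810 to 0.988) and the PARP1 ratio 0.916 (0.867 to 0.969), and in the part with the higher coordinates they were 1.01 (0.921 to 1.11) and 0.978 (0.926 to 1.03). The first part over the second gave 0.883 (0.769 to 1.01) for CDK2 and 0.937 (0.867 to 1.01) for PARP1, so the parts did not differ beyond the intervals at 30 min over 0 min. At 5 min over 0 min the PARP1 ratio of the first part was 0.877 (0.803 to 0.957) of that of the second. The first 200 kb of CNTNAP2, chromosome 7, 145810001 to 146010000, held 3090, 2519 and 2868 PARP1 reads at 0, 5 and 30 min, with ratios to 0 min of 0.777 (0.664 to 0.911) and 0.816 (0.710 to 0.937). LRP1B was below 1 in both parts for CDK2 at 30 min over 0 min, at 0.781 (0.695 to 0.877) and 0.870 (0.781 to 0.969). For CDK2 at 30 min over 0 min the lowest of all blocks was the last of the PTPRD region by coordinate, chromosome 9, 10510001 to 10620000. This shorter block of 11 windows held 883 reads at 30 min and 1496 at 0 min, a ratio of 0.664 (0.467 to 0.944). In CSMD1 the block at 3390001 to 3590000 was low with both antibodies, at 0.675 (0.505 to 0.901) for CDK2 and 0.800 (0.691 to 0.925) for PARP1. FHIT ran over 0.762 to 1.24 for CDK2, and its block at 60130001 to 60330000 was the only one of its 8 with an interval below 1.

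Single windows were called where one library had 2-fold or more the scaled reads of the other and an exact binomial test of the 2 counts, adjusted over all compared windows, passed 0.05. The test treats reads as independent, which the dispersion above does not bear out, so the counts are set beside the share of all compared windows called. For CDK2 at 30 min over 0 min, 197 of 1011 member windows were called lower, 19.5%, beside 11.5% of all compared windows, and 30 were called higher, 2.97%, beside 5.46%. By gene, the windows called lower made up 24.6% of LRP1B (47), 23.7% of CSMD1 (49), 19.2% of FHIT (29), 17.7% of PTPRD (41) and 13.4% of CNTNAP2 (31). For PARP1 at 30 min over 0 min 6 were called lower, 0.593%, beside 0.587%, and 0 were called higher, beside 0.406%. For PARP1 at 5 min over 0 min 27 were called lower, 2.67%, beside 1.73%, and 5 higher, 0.495%, beside 0.893%. For CDK2 at 5 min over 0 min 181 were called lower, 17.9%, beside 16.2%, and 84 higher, 8.31%, beside 6.21%.

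**Figure D4:**
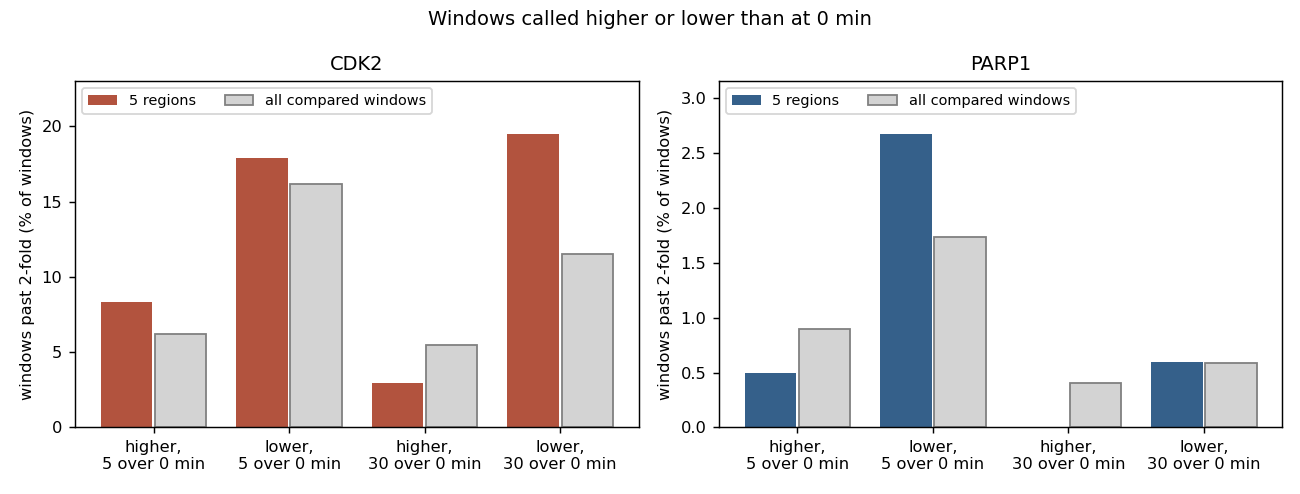
Percent of windows called lower or higher than at 0 min in the 5 regions (coloured bars) and among all compared windows (grey bars), for CDK2 (left) and PARP1 (right, on its own axis). The largest gap of those plotted is in CDK2 at 30 min over 0 min, where 19.5% of the member windows and 11.5% of all compared windows were called lower.

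Between the 2 times after hormone, CDK2 windows called lower were again more frequent in the regions than in the genome. For CDK2 at 30 min over 5 min 240 member windows were called lower, 23.7%, beside 15.1% of all compared windows, and 152 higher, 15.0%, beside 18.4%. For PARP1 at 30 min over 5 min 6 were called lower, 0.593%, beside 0.800%, and 14 higher, 1.38%, beside 1.30%. For CDK2 over PARP1 at 0 min 9 were called lower, 0.890%, beside 0.733%, and 3 higher, 0.297%, beside 0.442%. At 5 min 155 were called lower, 15.3%, beside 17.0%, and 118 higher, 11.7%, beside 8.02%. At 30 min 160 were called lower, 15.8%, beside 10.3%, and 30 higher, 2.97%, beside 3.84%. At 30 min over 0 min 3 member windows were called for both antibodies, all lower, 0.297%, beside 0.334% of all compared windows called for both. At 5 min over 0 min 10 were called for both, 0.989%, beside 0.918%, and 5 of them were lower with both and 5 went opposite ways. No member window in any of the 9 comparisons was called once the counts had been divided by the dispersion of the comparison. That setting called at most 12 of the 278395 compared windows in any comparison, so it cannot set the regions apart from the genome.

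The windows with the farthest counts lay in CDK2 libraries. The 10 kb of LRP1B from 142210001 had the highest mean of the region and held 116, 623 and 138 CDK2 reads at 0, 5 and 30 min, with 226, 196 and 248 PARP1 reads. Its CDK2 ratio of 5 min over 0 min was 4.19 (exact interval 3.43 to 5.16). Its PARP1 counts also lay above the upper quartiles of the region, which were 178, 173 and 185 reads at 0, 5 and 30 min. In CNTNAP2 the window from 147300001 held 79, 450 and 110 CDK2 reads, 4.45-fold higher at 5 min than at 0 min (3.49 to 5.72), with 106, 131 and 121 PARP1 reads. In FHIT the window from 60030001 held 99, 159 and 312 CDK2 reads, 3.55-fold higher at 30 min than at 0 min (2.82 to 4.49), with 169, 180 and 195 PARP1 reads. Also in FHIT, the window from 60970001 held 111, 30 and 11 CDK2 reads, a ratio of 0.111 (0.0541 to 0.207) at 30 min over 0 min, with PARP1 nearly level at 148, 146 and 168 reads. The interval of this ratio on counts divided by the dispersion, 0.00317 to 1.05, included 1.

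Windows with 0 reads occurred in CDK2 at 5 min. There were 15 of them in the 5 regions, 1.48%, beside 1.43% of all compared windows, with 5 in FHIT, 4 in CNTNAP2 and 2 in each other gene. The CNTNAP2 window from 146400001 held 184, 0 and 142 CDK2 reads at 0, 5 and 30 min and 191, 143 and 175 PARP1 reads. With 3 counts put in place of the 0, it was 78.6-fold lower at 5 min than at 0 min. This value leaves out the counting error of the 0 min library. The exact interval of the ratio, which covers counting error only, was 0 to 0.0158. The interval on counts divided by the dispersion was 0 to 0.457. The CNTNAP2 window from 147540001, lowest of its region, held 58, 0 and 0 CDK2 reads and 57, 50 and 49 PARP1 reads. For CDK2 it was 17.2-fold lower at 30 min than at 0 min with 3 counts in place of the 0, and the exact interval of the ratio was 0 to 0.0739. Its interval on counts divided by the dispersion, 0 to 1.70, included 1. In the 15 windows the other libraries held medians of 100 and 81 CDK2 reads at 0 and 30 min and 137, 124 and 171 PARP1 reads at 0, 5 and 30 min, so most of them held reads at every other time.

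Among the windows called for PARP1, the farthest from 1 in CSMD1 were neighbours of opposite sign. There the window from 3990001 held 180, 48 and 156 PARP1 reads at 0, 5 and 30 min, a ratio of 0.254 (0.181 to 0.351) at 5 min over 0 min. The adjoining window from 4000001 held 80, 198 and 166 PARP1 reads, a ratio of 2.36 (1.81 to 3.10). In FHIT the window from 60070001 held 155, 334 and 160 PARP1 reads, a ratio of 2.05 (1.69 to 2.50) at 5 min over 0 min, and 145, 257 and 138 CDK2 reads. The LRP1B window from 141780001 held 193, 109 and 78 PARP1 reads, a ratio of 0.355 (0.270 to 0.464) at 30 min over 0 min, and 122, 128 and 103 CDK2 reads. The PTPRD window from 9870001 held fewer reads at each later time with both antibodies, at 240, 171 and 111 PARP1 reads and 167, 108 and 61 CDK2 reads at 0, 5 and 30 min. The lowest window of the 5 regions lay in FHIT from 61190001, with 12, 55 and 18 CDK2 reads and 26, 35 and 23 PARP1 reads, a mean of 0.158 of the genome median in libraries scaled to a common depth.

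Within a gene the libraries ordered the windows only loosely. Between CDK2 and PARP1 at 0 min the Spearman rho over the windows of a gene was 0.151 in LRP1B, 0.155 in CSMD1, 0.172 in PTPRD, 0.227 in CNTNAP2 and 0.305 in FHIT, beside 0.855 over all compared windows. Between PARP1 at 0 min and PARP1 at 30 min it was 0.218 in LRP1B to 0.387 in FHIT, beside 0.856. Between CDK2 at 0 min and CDK2 at 5 min it was -0.0392 in CSMD1 to 0.291 in FHIT, beside 0.590. FHIT had the highest rho of the 5 in these comparisons and the lowest, 0.192, between PARP1 at 0 min and PARP1 at 5 min, where the other genes had 0.259 to 0.297. Windows share copy number, mappability and base composition, and those of a single gene span a narrower range of levels than the genome does.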

How the data were processed

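ChIP-seq of CDK2 and PARP1 in T47D-MTVL cells gave 6 libraries. The values are read counts per 10 kb window, deposited by the authors as whole numbers without normalization. The submitters' processing notes name Bowtie 1.0.0 and the build hg19. Filters on duplicates, multiple matches and quality are not given in the sources. Nothing says that libraries came from separate cultures.

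The regions were read from their stated hg19 bounds as windows lying wholly within them. The members and lists were chosen with earlier results of these data known. Counts were scaled by library totals in Python 3.11.15 (numpy 2.4.6, scipy 1.17.1, pandas 2.3.3; figures with matplotlib 3.10.9). Ratios of summed reads have 95% intervals widened by the dispersion of both libraries; ratios of single windows have exact conditional binomial intervals, which cover counting error only, since PCR reads are not independent molecules. Calls used a ratio past 2-fold and a two-sided exact binomial test adjusted by Benjamini-Hochberg over 278395 windows. Code was tested on simulated counts of independent reads, which lack the dispersion of these libraries, so the test does not cover calls under that dispersion. Other scalings used TMM from edgeR 4.0.16 and the median of ratios from DESeq2 1.42.0 in R 4.3.3, for factors alone.

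Named windows were those of highest and lowest mean in each region and, against 0 min, the called window in each direction whose interval bound lay farthest from 1. A wider list of long genes was not evaluated, since the annotation at hand is GRCh38.p14; it gave promoter sequences and neighbouring gene names only.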

Additional observations from a re-analysis of the deposited data

Results flagged for a closer look

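CNTNAP2 and LRP1B moved opposite ways with the antibodies at 5 min over 0 min. In CNTNAP2 the CDK2 ratio was 1.08 and the PARP1 ratio 0.931, and the CDK2 change was 1.16 times the PARP1 change (95% interval 1.06 to 1.27). In LRP1B the CDK2 ratio was 1.10 and the PARP1 ratio 0.872, and the CDK2 change was 1.26 times the PARP1 change (1.14 to 1.39). A CDK2 change above the PARP1 change was not particular to these genes, at 1.11 (1.02 to 1.22) in PTPRD and 1.12 (1.07 to 1.16) pooled. In CSMD1, at 1.07 (0.969 to 1.18), and FHIT, at 0.940 (0.837 to 1.05), the interval included 1. LRP1B was also singled out because its CDK2 ratio to 0 min lay above 1 at 5 min and below it at 30 min, at 0.827, with 0.752 (0.678 to 0.835) for 30 min over 5 min directly. The lower bound of CNTNAP2 for CDK2 at 5 min was 1.00, and without the 2 windows of highest mean the CDK2 intervals of CNTNAP2 and LRP1B at 5 min included 1. The median window ratio of CNTNAP2 for CDK2 at 5 min over 0 min was 1.00, beside 0.955 over all compared windows. Of its windows 49.8% lay below 1, beside 53.5% of all compared windows. With 1 library per antibody and time these differences were not tested across replicates.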

How the results depend on the processing

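With 1 library per antibody and time, no result has a replicate check, and scaling, a few windows and the dispersion of the CDK2 library of 5 min limit what the ratios show. No pooled ratio moved across 1 under another scaling, but calls did change. The interval of CDK2 at 5 over 0 min lay above 1 with TMM factors (1.03 to 1.11), the median of ratios (1.03 to 1.11) and the totals of low windows (1.08 to 1.17), and that of CDK2 over PARP1 at 30 min included 1 with all 3. With TMM factors the pooled ratios were 1.07 (CDK2, 5 over 0 min), 0.906 (CDK2, 30 over 0 min), 0.848 (CDK2, 30 over 5 min), 0.926 (PARP1, 5 over 0 min), 1.16 (CDK2 over PARP1, 5 min) and 0.978 (CDK2 over PARP1, 30 min). With the median of ratios they were 1.07, 0.912, 0.925, 1.17 and 0.986 for the same comparisons without CDK2 at 30 over 5 min. With totals of the windows at or below the median, which raise CDK2 at 5 over 0 min by 0.14 and CDK2 over PARP1 at 5 min by 0.11 on the log2 scale, they were 1.13, 0.908, 0.806, 0.933, 1.21 and 0.968, and 0.940 for PARP1 at 30 over 0 min. Without the outer 10 windows at each end of a region they were 0.868 (CDK2, 30 over 0 min), 0.849 (CDK2, 30 over 5 min), 0.907 (PARP1, 5 over 0 min), 1.02 (PARP1, 30 over 5 min) and 1.13 (CDK2 over PARP1, 5 min). Without the 2 windows of highest mean they were 1.01 (CDK2, 5 over 0 min), 0.866 (CDK2, 30 over 5 min) and 1.10 (CDK2 over PARP1, 5 min). The median of the window ratios gave 0.958 for CDK2 at 5 over 0 min, on the other side of 1 but beside 0.955 over all compared windows. For CDK2 at 30 over 0 and 30 over 5 min it gave 0.846 and 0.879, beside 0.962 and 1.02. For PARP1 at 5 over 0 and 30 over 0 min it gave 0.903 and 0.914, beside 0.991 and 0.996. For CDK2 over PARP1 at 5 and 30 min it gave 1.08 and 0.912, beside 0.955 and 0.965. The region of CSMD1 against flanks of 1 Mb gave 0.871 for CDK2 at 30 over 0 min, a setting chosen after seeing the data. Counts of called windows, in the order CDK2 at 5 over 0, 30 over 0 and 30 over 5 min, the same for PARP1, and CDK2 over PARP1 at 0, 5 and 30 min, were 519, 464, 602, 183, 126, 162, 143, 531 and 438 at a fold of 1.5, and 98, 84, 182, 2, 0, 2, 1, 105 and 59 at a fold of 3. For CDK2 at 30 over 0 min, 33.9% of member windows were lower at a fold of 1.5, beside 23.2% of all compared windows. At a fold of 3, 8.21% were lower, beside 4.31%. Windows called higher made up 12.0% at a fold of 1.5, beside 16.5%, and 0.0989% at a fold of 3, beside 0.779%. For PARP1 at 30 over 0 min, 9.59% were lower at a fold of 1.5, beside 4.90%, and 2.87% higher, beside 4.16%. At a fold of 3, CDK2 at 5 over 0 min had 8.31% lower, beside 8.19%, and 1.38% higher, beside 0.923%. CDK2 at 30 over 5 min had 10.1% lower, beside 6.04%, and 7.91% higher, beside 9.48%. CDK2 over PARP1 had 7.72 and 5.74% lower at 5 and 30 min, beside 8.65 and 3.79%. It had 2.67 and 0.0989% higher, beside 1.53 and 0.454%. At 0 min it had 0.0989% lower, beside 0.0938%, and 0 higher, beside 0.0524%. PARP1 at 5 over 0 min had 0.198% lower, beside 0.232%, and 0 higher, beside 0.0729%. PARP1 at 30 over 5 min had 0.198% higher, beside 0.193%, and 0 lower, beside 0.0772%. PARP1 at 30 over 0 min had 0 lower and 0 higher, beside 0.0672 and 0.0417%. For CDK2 at 5 over 0 min, 29.6% were lower at a fold of 1.5, beside 27.3%, and for PARP1 at 5 over 0 min 14.2%, beside 8.90%. Counts divided by the dispersion gave 0 in each, beside at most 12 of all 278395 compared windows. Sums over 5 windows gave 1, 1, 7, 0, 0, 0, 0, 4 and 0 calls among 197 sums. In CDK2 at 30 over 5 min, 3.05% of these sums were lower, beside 2.36% of all, and 0.508% higher, beside 3.49%. In CDK2 over PARP1 at 5 min, 1.02% were lower, beside 2.13%, and 1.02% higher, beside 0.558%. The calls in CDK2 at 5 over 0 and 30 over 0 min were lower, 0.508% each, beside 1.55% and 0.835%. Apart from the construction of these settings, the cause of each shift was not tested. No paired analysis was possible because each antibody and time had 1 library.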
